A study of Saccharomyces cerevisiae with 8 samples.

Results

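Chromosome IV of *S. cerevisiae* carried 46 loci of MCM2-7 and ORC binding, out of 355 in the genome. They hold 1210 of the 9293 ChIP-Exo binding events in 6 deposited lists. All events with a chromosome IV position were taken, the 6 lists were pooled, and events up to 250 bp apart were chained into 1 locus. The cut between loci was clear, because the largest gap between events inside a locus was 227 bp, at ARS432, and the smallest gap between neighbouring loci was 2961 bp. The chromosome is 1531933 bp long, and its centromere, CEN4, lies at 449711 to 449821 in the R64 assembly.

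In ChIP-Exo an exonuclease digests the precipitated DNA until it meets the protein, and each read end therefore marks an edge of the bound site. All cells were W303, with a FLAG tag on the protein that was precipitated. FLAG-Mcm4 cells (strain YC779) were arrested in G1-phase with alpha-factor, the mating pheromone, and FLAG-Orc2 cells (strain YC795) were arrested in G1-phase in the same way or in G2-phase with nocodazole, which blocks spindle assembly. Each of these 3 groups had 2 replicates, and 2 further Orc2 samples from S-phase were not analysed here. Mcm4 stands for MCM2-7 and Orc2 for ORC, each as 1 tagged subunit in 1 strain. Protein and strain therefore cannot be told apart in comparisons of MCM2-7 with ORC. Against ORC in G2-phase, MCM2-7 also differs in phase and arrest drug. Between the ORC groups, phase and drug cannot be told apart. The lists carry no read counts, and the depth behind an event is unknown.

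Replication origins of budding yeast, the autonomously replicating sequences (ARS), are bound by ORC, the origin recognition complex, at an AT-rich element that contains the ARS consensus sequence. In G1-phase ORC, Cdc6 and Cdt1 load pairs of MCM2-7 rings around the DNA, which is called licensing, and in S-phase these rings become the core of the replicative helicase. In G2-phase no new rings are loaded, while ORC remains on chromatin. *ARS1*, named ARS416 in the systematic scheme, lies on this chromosome beside *TRP1* and is the origin in which the functional elements of a yeast origin were mapped in detail.

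RefSeq annotates 41 origins on chromosome IV, and 38 of them had a locus. The exceptions were ARS409.5, ARS411 and ARS442, whose nearest events lay 17455, 2477 and 6757 bp away. Of the other 8 loci, 6 carry a name in the study's own list of origins (ARS407, ARS408, ARS430.5, ARS437, ARS441 and ARS447), and 2, at 720586 and 878064, are named here by position. In that list RefSeq's ARS443 is called ARS442. It calls ARS450 ARS417.5, ARS451 ARS422.5, ARS452 ARS431.5 and ARS453 ARS432.5. The names below follow RefSeq where it has one.

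The sequences of 7 loci are shown because the results below turn on them. ARS1 (chrIV:462547-462616) is the best-known origin, ARS428 (chrIV:913858-913919) the narrowest locus, and ARS441 (chrIV:1447391-1447512) a locus with MCM2-7 upstream of ORC. ARS422 (chrIV:702797-703005) and ARS447 (chrIV:1502747-1502998) had the smallest p-values in the 2 comparisons of MCM2-7 with ORC. ARS432 (chrIV:1159341-1159522) and the locus at 878064 (chrIV:877929-878215) were placed first and last by MCM2-7. ARS428 and ARS441 were added after their values were seen. All are the plus strand of R64, 5′ to 3′, and span the first-listed events of the 6 lists and the best match to the 11-base ARS consensus sequence, which is in capitals and can lie on either strand.
ARS1: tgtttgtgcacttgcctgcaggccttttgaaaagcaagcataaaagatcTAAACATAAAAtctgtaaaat
ARS428: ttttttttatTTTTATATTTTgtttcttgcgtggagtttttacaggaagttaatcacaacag
ARS441: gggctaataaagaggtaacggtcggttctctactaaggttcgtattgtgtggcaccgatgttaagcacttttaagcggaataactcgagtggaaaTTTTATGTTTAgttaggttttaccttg
ARS422: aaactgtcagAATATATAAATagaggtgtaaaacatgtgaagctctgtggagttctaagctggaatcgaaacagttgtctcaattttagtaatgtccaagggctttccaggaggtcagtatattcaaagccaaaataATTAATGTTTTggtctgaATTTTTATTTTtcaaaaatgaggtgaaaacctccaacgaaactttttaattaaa
ARS447: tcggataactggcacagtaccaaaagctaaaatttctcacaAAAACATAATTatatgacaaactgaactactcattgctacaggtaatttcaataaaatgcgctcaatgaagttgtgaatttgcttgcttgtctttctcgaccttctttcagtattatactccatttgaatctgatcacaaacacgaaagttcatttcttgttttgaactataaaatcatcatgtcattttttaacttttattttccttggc
ARS432: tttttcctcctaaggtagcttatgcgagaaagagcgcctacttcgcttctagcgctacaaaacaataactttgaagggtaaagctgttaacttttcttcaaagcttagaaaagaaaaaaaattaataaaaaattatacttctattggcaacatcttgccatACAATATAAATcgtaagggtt
locus at 878064: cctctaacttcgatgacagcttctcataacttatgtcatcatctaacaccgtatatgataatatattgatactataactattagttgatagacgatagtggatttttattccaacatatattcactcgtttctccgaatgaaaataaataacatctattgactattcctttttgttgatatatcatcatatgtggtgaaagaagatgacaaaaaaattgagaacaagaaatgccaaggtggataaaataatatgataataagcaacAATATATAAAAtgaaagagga
The match at ARS1 begins at 462596 and lies on the minus strand, so that its downstream side points left, towards *TRP1*. ARS1, ARS428 and ARS441 match at all 11 bases, while the best match of the other 4 loci has 10, and ARS422 has 3 such matches on both strands.

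Exact matches were common at these loci and rare elsewhere. Windows of 301 bp around the locus median held an exact match on either strand at 16 of 46 loci (34.8%), against 1.89% of all 40095 consecutive windows of that length in R64. At the 309 loci of the other chromosomes the share was 38.2%. The best match reached 10 bases at 24 loci, 9 at 5 and 8 at 1, ARS436. The windows were AT-rich, with a median of 69.4% A or T against 61.8% in all windows. A match is a description of the letters and not a tested binding site, and the cells were W303 while R64 is the sequence of another strain.

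Loci lay on both arms without a long empty stretch at either end. The left arm had 13 loci, or 1 per 34.6 kb, and the longer right arm had 33, or 1 per 32.8 kb, against 1 per 34.0 kb in the genome. The spacing of neighbouring locus medians had a median of 34.1 kb on the left arm (12 spacings) and 24.7 kb on the right arm (32 spacings), and 26.4 kb over the chromosome, with quartiles of 15.7 and 49.4 kb. The genome-wide median was 31.3 kb (339 spacings), that of chromosome III, a short one, was 23.1 kb, and that of chromosome XII, the carrier of the rDNA, 37.1 kb. The quartiles of chromosome IV span all these medians. Spacings above 50 kb made up 22.2% on chromosome IV and 23.0% in the genome, and those below 10 kb 8.89% and 11.8%.

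**Figure D1:**
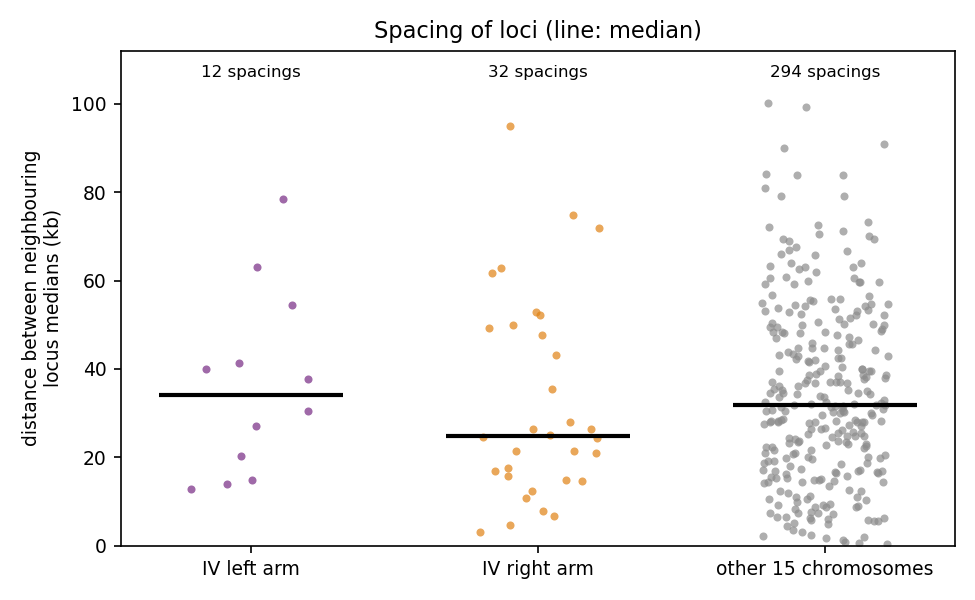
Distance between neighbouring locus medians in kb on the left and right arm of chromosome IV and on the other chromosomes. Each point is 1 spacing and the line is the median (34.1 and 24.7 kb on the 2 arms), and the longest spacing of chromosome IV, 95.05 kb, is on the right arm.

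The widest spacing, 95.05 kb, separated ARS429 from ARS430, and the widest of the genome was 100.2 kb. ARS429 lies between *SIR4*, which encodes a silencing protein, and *PCF11*, which encodes an mRNA cleavage factor. The next widest were 78.5 kb between ARS413 and ARS414 on the left arm and 74.8 kb between ARS453 and ARS433. The narrowest spacing was 3.19 kb, from ARS435 to ARS436, followed by 4.74 kb from ARS451 to ARS423 and 6.77 kb from ARS432 to ARS453. Each of the 2 closest pairs held a locus that was absent from at least 1 list (ARS436 and ARS451). At the left end ARS400 lay 846 bp from the chromosome end, inside a repeated subtelomeric element, and at the right end ARS447 lay 29140 bp from it. ARS415 and ARS1 flanked the centromere at 14.6 and 12.8 kb.

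**Figure D2:**
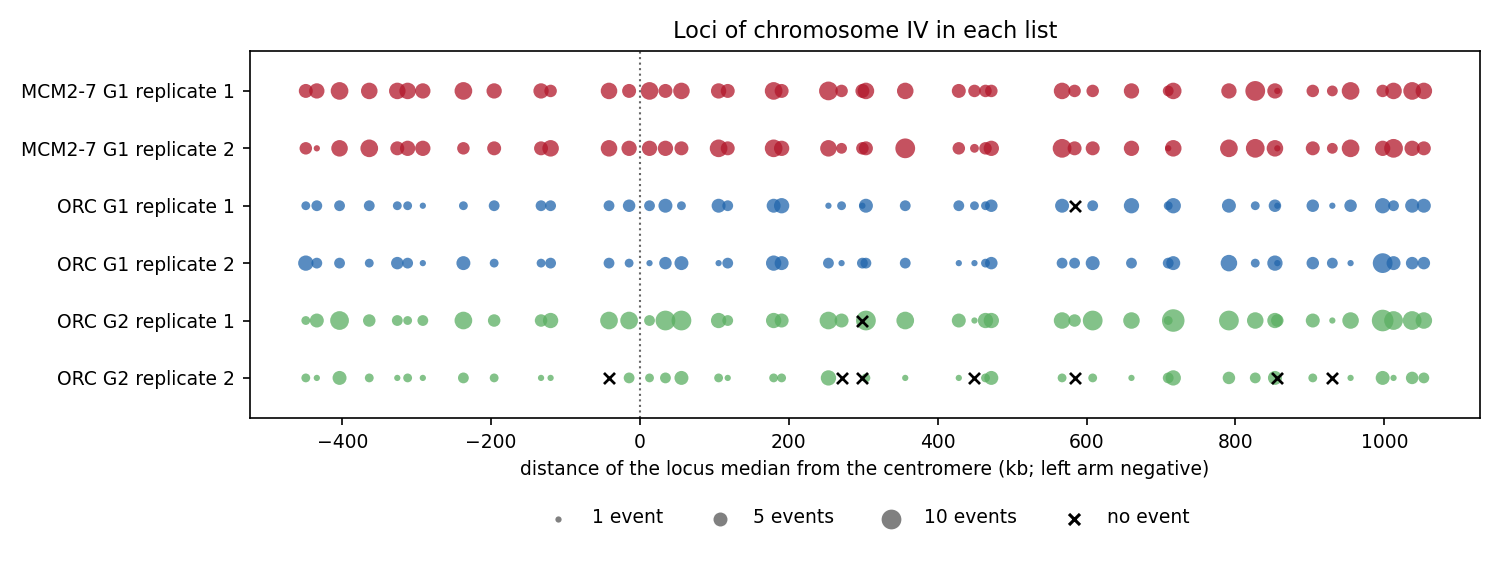
Loci of chromosome IV in the 6 lists by distance of the locus median from the centromere in kb, left arm negative, with 1 row per list. The area of a point is the number of events and crosses mark loci with no event, of which ORC G2 replicate 2 has 7, ORC G1 replicate 1 has 1 and ORC G2 replicate 1 has 1.

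The nearest gene was a median of 187 bp from the locus median. Convergent genes, whose ends face each other, flanked 19 loci (41.3%), against 32.4% in the genome. Tandem genes flanked 18 (39.1% against 44.5%) and divergent genes, whose promoters face each other, 7 (15.2% against 16.3%). ARS430.5 was the only locus inside a gene, *ZIP1*, which encodes a protein of the meiotic synaptonemal complex. ARS432 lies beside the near-identical hexose transporter genes *HXT6* and *HXT7*, ARS400 in a repeated element and the locus at 878064 between Ty transposon genes. Reads at these 3 may therefore map to other copies, which was not checked, and their values are less certain. The other loci, among them ARS403 between *HXT15* and *THI13*, were not checked for copies either.

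MCM2-7 events were found at every locus in both replicates. The paper left origins without MCM2-7 occupancy out of its origin set. Whether the deposited lists were cut in this way is not known, so MCM2-7 at every locus may follow from how the lists were made. The MCM2-7 lists held 270 and 260 events on chromosome IV in replicates 1 and 2, a median of 6 per locus in each. The ORC lists in G1-phase held 148 and 154, a median of 3 in each. In G2-phase the ORC lists held 278 and 100, medians of 6 and 2. Both MCM2-7 lists thus exceeded both G1-phase ORC lists, while the G2-phase replicates lay on either side of the G1-phase pair, and no direction can be read between the phases. These numbers are 13.6 and 15.1% of the MCM2-7 lists, 12.7 and 11.2% of the ORC lists in G1-phase and 12.8 and 11.6% of those in G2-phase. The chromosome held 13.0% of the loci.

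MCM2-7 events were the most numerous at ARS434, with 10 and 9 in the 2 replicates, between *DIT1*, a gene of the spore wall, and *RPB7*, which encodes an RNA polymerase II subunit. ARS425 had 7 and 10, ARS422 9 and 7, and ARS430 and ARS443 7 and 9 each, while ARS420 and ARS440, with 8 and 8, had the same sum as the last 3. The fewest were at ARS436, with 1 and 1. ARS432 had 3 and 1, ARS439 3 and 3, ARS427 4 and 2, and the locus at 720586 4 and 3, the same sum as ARS403 with 6 and 1. Events of ORC in G1-phase numbered 2 and 2 at ARS434, 1 and 1 at ARS436, 1 and 3 at ARS439 and 2 and 1 at ARS427. The highest ORC count in that phase, 10, was in replicate 2 at ARS441, where replicate 1 had 6.

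Events were called shared if an event of the other replicate lay within 50 bp, which is wide against the median locus width of 363 bp. With this limit the shared part was 90.0% of MCM2-7 events on chromosome IV (95% Wilson interval 87.2 to 92.3, n = 530), 75.5% of ORC events in G1-phase (70.4 to 80.01, n = 302) and 71.2% in G2-phase (66.4 to 75.5, n = 378), where the intervals cover counting error only. The genome-wide shares were 89.3, 76.1 and 68.2%. In G2-phase the share depended on the list, at 64.4% of the 278 events of replicate 1 and 90.0% of the 100 of replicate 2. Of the ORC events in G1-phase, 95.03% had an MCM2-7 event within 50 bp, against 89.7% in the genome. Of the MCM2-7 events 77.0% had an ORC event of G1-phase so close, against 80.7% in the genome. These shares move with the length of the other list, and their value for unrelated positions in the same loci was not tested.

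Events of all 6 lists were present at 39 loci (84.8%, against 90.7% in the genome). The other 7 all lacked events in ORC G2 replicate 2, the shortest list. ARS414, ARS427, ARS436, ARS439 and the locus at 720586 lacked nothing else, ARS430.5 also lacked ORC G1 replicate 1, and ARS451 lacked both ORC lists of G2-phase. The authors' score is a whole number from 66 to a cap of 1000. At these loci the largest ORC score in G1-phase ranged from 67 to 696 in replicate 1 and from 80 to 440 in replicate 2, and the largest MCM2-7 score from 132 to 1000 and from 68 to 1000. No locus had events of 1 protein only.

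ARS451 and ARS436 were the extremes among the loci missing from a list. ARS451, between *TAF12*, a gene for a subunit of the TFIID and SAGA complexes, and *SWI5*, a gene for a cell cycle transcription factor, had 5 and 4 MCM2-7 events, whose largest score was 1000 in both lists. Its ORC scores in G1-phase were at most 207 and 234. ARS436 showed the opposite order, with 1 MCM2-7 event per replicate, of score 132 and 68 and 417 bp apart, against 1 ORC event per replicate in G1-phase, of score 502 and 440. ORC G2 replicate 1 had 4 events at ARS436, and the largest score was 182. The scores are not normalised between lists, and neither locus entered a test, as both were missing from a list.

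**Figure D3:**
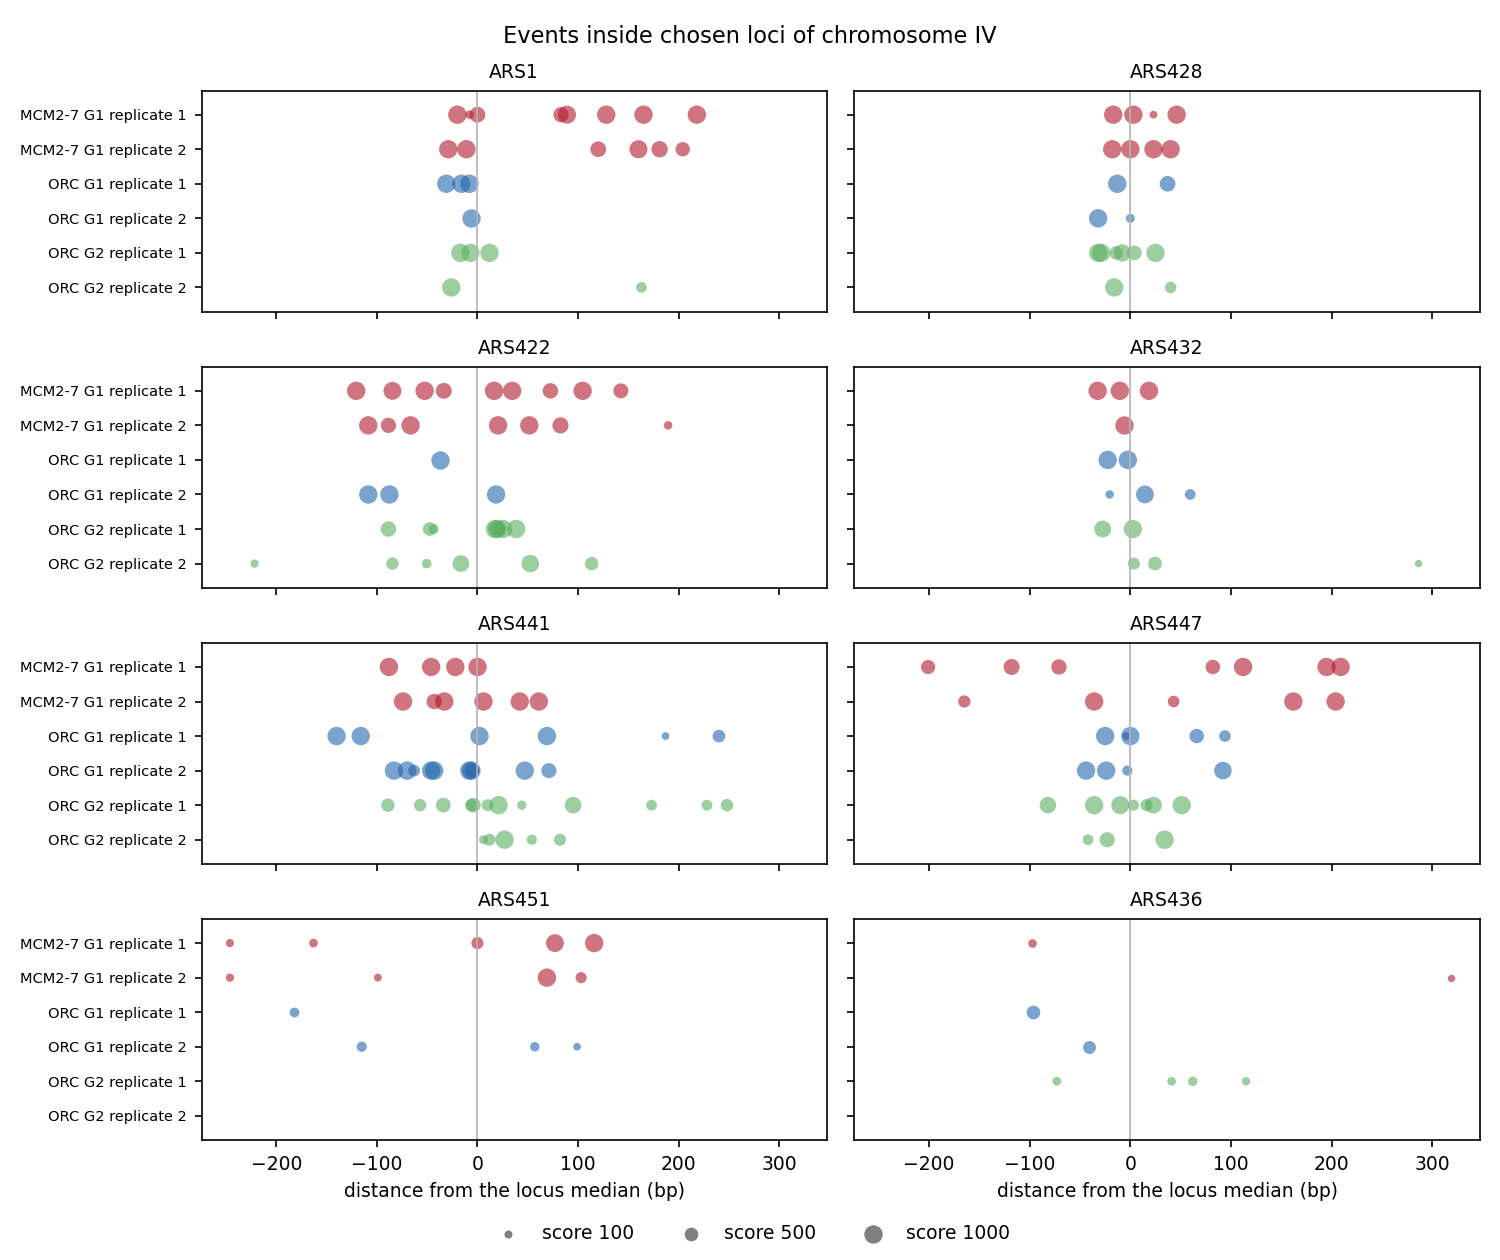
Events at 8 loci by distance from the locus median in bp, with 1 row per list and point area growing with the score. ARS428 spans 79 bp with events of all 6 lists, while at ARS447 the MCM2-7 events reach beyond the ORC events on both sides, and ARS451 has no ORC event in G2-phase.

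Locus width ranged from 79 bp at ARS428 to 443 bp at ARS409, with a median of 363 bp (371 bp in the genome). ARS428 lies between *CRF1*, a gene for a corepressor of ribosomal protein genes, and *HTB1*, a gene for histone H2B. Its 4 and 4 MCM2-7 events, 2 and 2 ORC events in G1-phase and 6 and 2 in G2-phase all fell in this stretch. At ARS1, by contrast, the 8 and 6 MCM2-7 events reached to the right beyond all ORC events of G1-phase, and the 3 and 1 ORC events of G1-phase lay together at the left end of the locus, next to the consensus match.

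The position of a locus in a list was taken as that of its first-listed event. At ARS1 this was 462563 and 462572 for MCM2-7, 462567 and 462577 for ORC in G1-phase and 462576 and 462557 for ORC in G2-phase. The 3 groups overlapped. Over the chromosome, the first-listed MCM2-7 and G1-phase ORC events lay a median of 41.0 bp apart (45 loci, 39.5 bp in the genome), ORC in G1- and G2-phase 20.5 bp (39 loci, 27.5 bp), and MCM2-7 and ORC in G2-phase 33.5 bp (39 loci, 37.0 bp). Replicates themselves were a median of 25.5 bp apart for MCM2-7, 24.0 bp for ORC in G1-phase and 37.0 bp for ORC in G2-phase. The distances between groups are between means of 2 lists and those between replicates between single lists, so the 2 kinds are not compared.

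The 16 loci with an exact match gave the positions a direction. Relative to the middle of the match, MCM2-7 lay a median of 48.5 and 36.0 bp downstream in replicates 1 and 2. ORC lay 17.5 and 22.5 bp downstream in G1-phase and 21.5 and 28.5 bp in G2-phase. The medians of the 2 MCM2-7 lists were the largest of the 6. Locus by locus the order was mixed, with both MCM2-7 lists downstream of both G1-phase ORC lists at 6 of 16 loci and upstream of both at 2, ARS441 and ARS443. At ARS1 MCM2-7 was 38 and 29 bp downstream and ORC in G1-phase 34 and 24 bp. At ARS441, between *SEC20*, a gene of vesicle transport, and *LCD1*, a gene of the DNA damage checkpoint, MCM2-7 was 62 and 90 bp upstream of the match and ORC in G1-phase 14 and 22 bp upstream, with no overlap. The match was chosen by letters alone and the direction was not tested. The counts of loci in either order were not made for other chromosomes, so they cannot be set against a genome share.

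Positions of the 3 groups were compared at each locus in 1 fit of all 6 lists (limma moderated test with Benjamini-Hochberg adjustment over the 322 loci of the genome found in all lists, threshold 0.05). No locus of chromosome IV passed in any of the 3 comparisons. Across the genome 0 loci (0%) passed between the ORC phases, 0 (0%) between MCM2-7 and ORC in G1-phase and 2 (0.621%) between MCM2-7 and ORC in G2-phase. At an unadjusted p below 0.05 the chromosome had 3, 3 and 5 of 39 loci and the genome 26, 40 and 49 of 322. ARS447, between *HSP31*, a gene for a stress chaperone, and *FIT1*, a gene of iron uptake, came closest. There the MCM2-7 positions were 1502988 and 1502955 and the ORC positions 1502768 and 1502769 in G1-phase and 1502757 and 1502827 in G2-phase, so that the groups did not overlap. MCM2-7 lay 203 bp (SE 30.4) to the right of ORC in G1-phase (limma adjusted p = 0.0854) and 179.5 bp (SE 30.4) to the right of ORC in G2-phase (limma adjusted p = 0.0613). Lower-listed MCM2-7 events of ARS447 also lay to the left of the ORC events. Without ORC G2 replicate 2, ARS447 passed against ORC in G2-phase (214.5 bp), as did ARS408 (188 bp, limma adjusted p = 0.0445 for both), and without ORC G2 replicate 1 ARS404 did (244 bp, limma adjusted p = 0.0498). In every fit that leaves out a list, for positions as for places, the group left with 1 list is assumed to vary like the other groups. With only the events scored no lower than the median of their list, ARS447 passed against ORC in both phases (limma adjusted p = 0.0299 and 0.0327).

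The order of events within a list was used to compare loci between lists. A list broadly runs from high to low score, but 280 of 1982 and 301 of 1723 lines of the MCM2-7 lists scored above the line before, 110 of 1170 and 176 of 1379 of ORC in G1-phase and 130 of 2178 and 30 of 861 in G2-phase. A locus took the place of its first-listed event, counted from 1 to 322 among the loci found in all 6 lists. Scores alone could not rank MCM2-7, since 38 of 39 tested loci of chromosome IV reached the cap of 1000 in both MCM2-7 lists. The counts were 24 in both lists of ORC in G1-phase and 8 in both of G2-phase. In the genome they were 298 (92.55%), 172 (53.42%) and 51 (15.84%) of 322 loci. What orders the lines of equal score is not stated. Replicates of MCM2-7 differed by a median of 43.0 places on chromosome IV and 29.0 on the other chromosomes, ORC in G1-phase by 29.0 and 40.0, and ORC in G2-phase by 29.0 and 35.0. The widest disagreement between MCM2-7 replicates in the genome was at ARS423, with places 269 and 84.

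**Figure D4:**
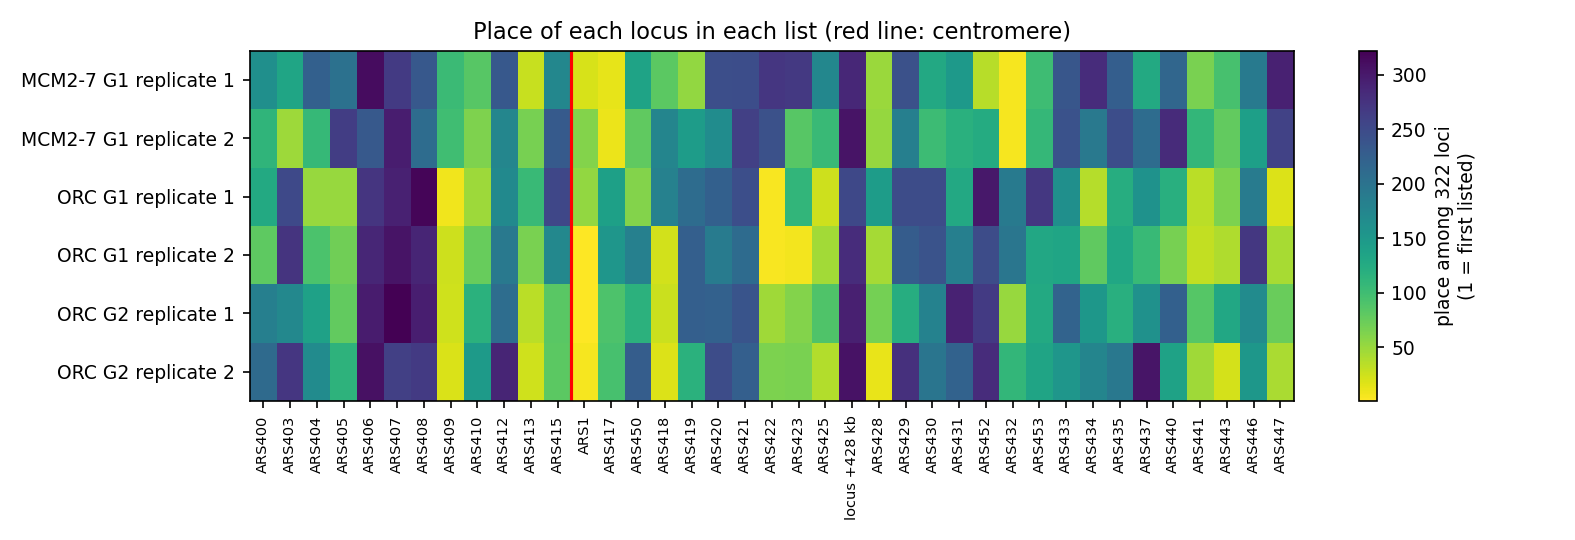
Place of each of the 39 loci found in all lists (columns, along the chromosome) in each of the 6 lists (rows), where 1 is the first listed of 322 loci. ARS432 and ARS417 are early in both MCM2-7 lists, ARS422 in both lists of ORC in G1-phase, and ARS406, ARS407 and the locus 428 kb right of the centromere are late in all 6.

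In the MCM2-7 lists ARS432 came first on the chromosome, at places 5 and 5, ahead of ARS417 at 13 and 10. ARS1 (21 and 60), ARS413 (28 and 67) and ARS428 (49 and 52) followed, and these 3 overlapped. By mean place the last was the locus at 878064, at 286 and 305, preceded by ARS407, ARS447, ARS406 and ARS422. In replicate 1 ARS406 (311) and ARS447 (292) came after it, so these overlapped.

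In the G1-phase ORC lists ARS422 came first by mean place, at places 4 and 4, although ARS1 was ahead of it in replicate 2. ARS409 was at 8 and 26, ARS1 at 53 and 2, ARS447 at 18 and 43 and ARS441 at 34 and 31, all within the range of ARS1 places. The last were ARS408 (317 and 289) and ARS407 (293 and 305), which also overlapped. ARS408 and ARS407 lie 20.4 kb apart on the left arm.

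In G2-phase ARS1 came first in the ORC lists, at places 2 and 6. ARS409 (24 and 19), ARS418 (27 and 18), ARS413 (34 and 24) and ARS428 (68 and 12) followed. The last were ARS406 (298 and 307) and the locus at 878064 (294 and 306), together with ARS407, ARS408 and ARS452. ARS1 and ARS409 were thus among the first 5 in both ORC phases, and ARS406, ARS407, ARS408, ARS452 and the locus at 878064 made up the last 5 in both.

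The ORC phases were compared on these places, turned into standard normal scores within each list, in 1 fit of all 6 lists (limma moderated test, adjusted over the 322 loci). The fit called 7 loci in the genome (2.17%) and 0 of 39 on chromosome IV. At an unadjusted p below 0.05 there were 6 of 39 on the chromosome and 53 of 322 in the genome. ARS422 had the smallest p. Its ORC places were 4 and 4 in G1-phase and 47 and 64 in G2-phase, which do not overlap, and the difference was 1.34 (SE 0.43) in normal scores (limma adjusted p = 0.0759). Without ORC G1 replicate 2, ARS418 was called, at -1.65 (limma adjusted p = 0.0364), whose ORC places in G1-phase were 181 and 23.

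MCM2-7 and ORC in G1-phase put several loci in different places. The limma fit called 12 of 39 loci of chromosome IV, against 84 of 322 in the genome (26.1%). At 5 loci MCM2-7 was the earlier (14.0% of loci in the genome), and at 7 ORC was the earlier (12.1%). The share on the chromosome, 30.8%, was near that of the genome.

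ARS422, between *ECM18* and *SWF1*, which encodes a palmitoyltransferase, differed most. Its places were 271 and 243 in the MCM2-7 lists against 4 and 4 in those of ORC in G1-phase, a difference of -3.13 (SE 0.43, limma adjusted p = 5.61e-06). ARS447 followed in this direction, with MCM2-7 places 292 and 259 and ORC places 18 and 43 (-2.44, SE 0.43, limma adjusted p = 0.000137). The groups did not overlap at either locus. ARS434, ARS405, ARS440, ARS423 and ARS409 were called in the same direction, with differences from -1.64 to -1.21. At ARS423 the groups overlapped, with MCM2-7 at 269 and 84 and ORC at 111 and 7. Its difference of -1.39 was -0.58 without MCM2-7 replicate 1 and -0.57 without ORC G1 replicate 2, and -2.20 and -2.21 without the other replicate of each. At ARS409 both proteins were in the earlier part of the lists, MCM2-7 at 103 and 99 and ORC at 8 and 26.

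ARS432 was the strongest in the other direction. MCM2-7 was at 5 and 5 and ORC in G1-phase at 190 and 196 (2.45, SE 0.43, limma adjusted p = 0.000137). ARS452, between *ASP1*, a gene for asparaginase, and *MRPL35*, a gene for a mitochondrial ribosomal protein, had MCM2-7 at 36 and 125 and ORC at 301 and 248 (1.87, SE 0.45, limma adjusted p = 0.00283). ARS417, next to *GCV1*, a gene of glycine cleavage, had MCM2-7 at 13 and 10 and ORC at 139 and 153 (1.71, SE 0.42, limma adjusted p = 0.00337). ARS403 and ARS408 were called as well, at 1.53 and 1.20. At ARS408 both proteins were in the later part, MCM2-7 at 234 and 208 and ORC at 317 and 289.

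**Figure D5:**
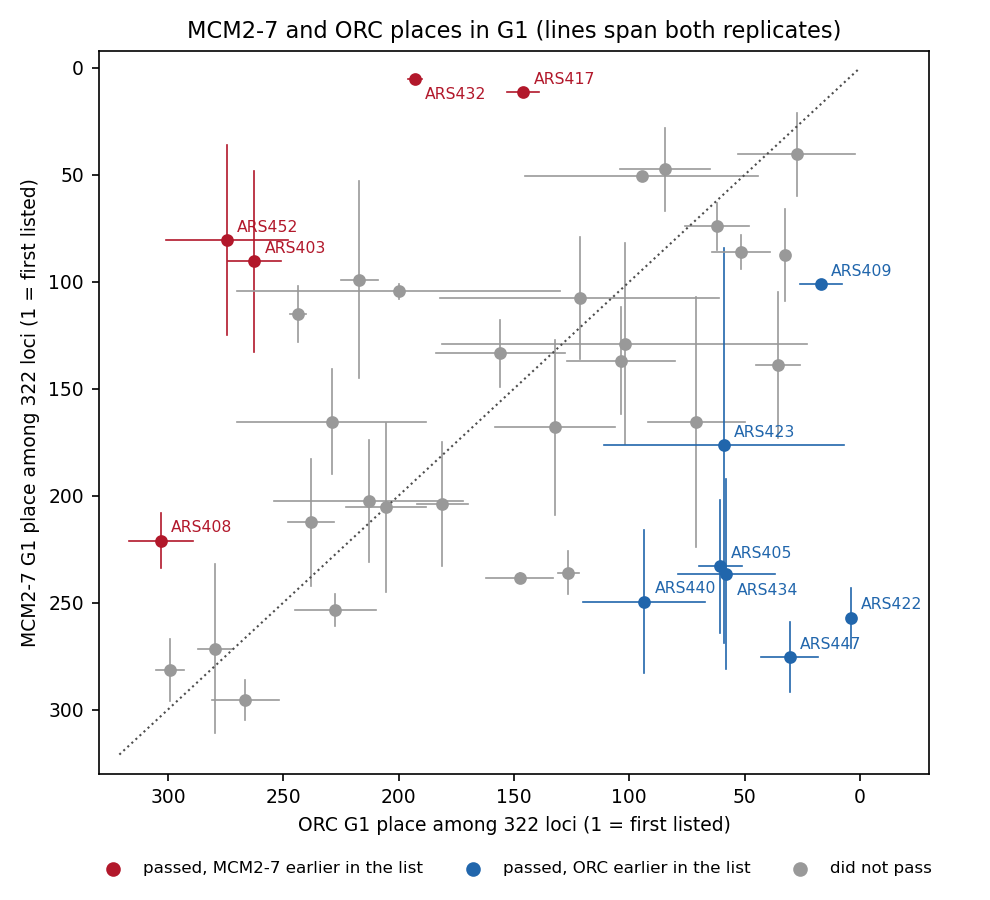
Mean place of each of 39 loci in the 2 MCM2-7 lists (vertical) against the 2 lists of ORC in G1-phase (horizontal), where 1 is the first listed of 322 and lines span both replicates. The 5 loci called with MCM2-7 earlier lie above the diagonal and the 7 called with ORC earlier below it.

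Against ORC in G2-phase the fit called 6 of 39 loci (15.4%), against 87 of 322 in the genome (27.0%), 3 in each direction (14.3% with MCM2-7 earlier and 12.7% with ORC earlier in the genome). Both comparisons of MCM2-7 with ORC use the same MCM2-7 lists. ORC places in G2-phase were 47 and 64 at ARS422 (-1.80, limma adjusted p = 0.00270), 74 and 42 at ARS447 (-2.02, limma adjusted p = 0.00148) and 78 and 114 at ARS405 (-1.16, limma adjusted p = 0.0462). They were 267 and 281 at ARS452 (1.79, limma adjusted p = 0.00426), 50 and 109 at ARS432 (1.48, limma adjusted p = 0.0113) and 91 and 95 at ARS417 (1.26, limma adjusted p = 0.0276). At ARS422, ARS432, ARS417 and ARS405 the G2-phase places lay between those of ORC and MCM2-7 in G1-phase. At ARS447 and ARS452 they overlapped those of ORC in G1-phase. This order was not counted at other loci.

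Without either MCM2-7 replicate nearly all calls of both comparisons were lost, on the chromosome as in the genome. The difference at ARS422 against ORC in G1-phase was -2.98 without MCM2-7 replicate 1 and -3.29 without replicate 2. No direction turned in these fits, and the difference at ARS432 against ORC in G1-phase stayed at 2.45 (limma adjusted p = 0.0628 and 0.0541). ARS408 (1.20, then 0.77) and ARS409 were lost without ORC G1 replicate 1, ARS423 and ARS440 without ORC G1 replicate 2, ARS405 and ARS417 without either ORC G2 replicate, and ARS432 against ORC in G2-phase without ORC G2 replicate 2. The prior degrees of freedom of the fit fell from 26.7 to 5.03 when an MCM2-7 replicate was left out, and the median SE rose from 0.44 to 0.51. With the largest score in place of the place, the directions at ARS432 and ARS417 turned in both comparisons (-0.0064 and -0.42 against ORC in G1-phase, -0.59 and -0.65 against ORC in G2-phase), and ARS417 against ORC in G2-phase passed in the opposite direction (limma adjusted p = 0.0490). Of the calls in the direction of the places only ARS408 remained against ORC in G1-phase and ARS422, ARS447 and ARS452 against ORC in G2-phase. On that measure nearly every MCM2-7 value on the chromosome is the same tied cap, so it reads the ORC scores.

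The number of events moved with the place in part. Over the 39 loci Spearman's rho between the number of events and the place was 0.38 and 0.23 in the MCM2-7 lists, 0.17 and 0.03 for ORC in G1-phase and -0.23 and -0.19 for ORC in G2-phase, where the loci share the library. Over the 322 loci of the genome rho was 0.29 and 0.331 for MCM2-7. It was 0.143 and -0.265 for ORC in G1-phase, of opposite sign in the 2 lists, and -0.155 and -0.235 in G2-phase. Between replicates, rho of the differences was 0.39, 0.28 and 0.43, with more events going with a later place in all 3 groups. In the genome these were 0.461, 0.168 and 0.341. ARS432, first for MCM2-7, had 3 and 1 MCM2-7 events, and ARS422, late for MCM2-7, had 9 and 7. At ARS1 ORC in G1-phase had 3 events and place 53 in replicate 1 and 1 event and place 2 in replicate 2. The part of the number of events in the calls was not tested.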

How the data were processed

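ChIP-Exo libraries of FLAG-Mcm4 and FLAG-Orc2 cells were sequenced and aligned by the authors with Bowtie2 (version 2.3.5, from the submitters' processing notes) to sacCer3 (R64), and events were called with ChExMix on each replicate, without tRNA genes and the rDNA. The deposited lists hold a position and a score per event, written by the authors' caller and not normalised between lists. No read counts are given, so depth is unknown.

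Events were pooled and chained at 250 bp. Places among the 322 loci found in all lists were turned into normal scores, and places and positions were tested with limma 3.58.1 (R 4.3.3), with Benjamini-Hochberg adjustment, and the fit was tested on simulated data. An exact permutation test of 2 against 2 lists cannot go below 0.333. Origins, genes and sequence come from the RefSeq annotation of R64. Other steps used Python 3.11.15 with pandas 2.3.3, NumPy 2.4.6, Matplotlib 3.10.9 and SciPy 1.17.1.

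The chromosome, lists and measures were chosen with earlier results of these data known. Loci are named if they are ARS1, at the ends, beside the centromere, at the 3 widest or narrowest spacings, among the 5 with most or fewest MCM2-7 events, among the 5 first or last in a group, or called. Other named loci, and the printing of the ARS428 and ARS441 sequences, were chosen after their values were seen.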

Additional observations from a re-analysis of the deposited data

How the results depend on the processing

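The 12 calls of MCM2-7 against ORC in G1-phase became 7 of 26 loci with only the events scored no lower than the median of their list, 2 with the largest score in place of the place, and 1 without either MCM2-7 replicate (11 without either ORC replicate). The 6 calls against ORC in G2-phase became 12 with the 4 lists of the comparison only and 15 with the largest score, and ranged from 0 to 6 when 1 replicate was left out. The ORC phases gave 0 calls on the chromosome in every setting that kept both replicates, and 0 to 12 in the genome. Positions gave 1 call with the filter on the median score for MCM2-7 against ORC in either phase (ARS447). In the genome 9 of 181 loci were called in each of these 2 comparisons. A group left with 1 list was assumed to vary like the others. Turned directions were those of ARS417 (-0.42 and -0.65) and ARS432 (-0.0064 and -0.59) with the largest score. Chaining at 100 bp gave 59 loci, a median spacing of 21.1 kb, and medians of 5 MCM2-7 events and 2.5 G1-phase ORC events per locus. That score filter gave 43 loci, 29.4 kb, 3.5 and 1.5. Chaining at 500 bp gave 46 loci. Single replicates gave medians of 26.37 and 26.43 kb. The shared share, 80.5% over all events, was 64.2% at 25 bp and 89.9% at 100 bp. With a replicate block the calls were 0, 12 and 5, as ARS405 missed against ORC in G2-phase (limma adjusted p = 0.0556). Differences between same-numbered replicates correlated at 0.0628, -0.0864 and -0.0454 over 322 loci, so the numbers were not taken to pair the lists. The unknown depth of the shorter ORC G2 replicate 2 limits what its missing loci show.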
